A study of Homo sapiens with 16 samples.

Results

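The 34 genes described here are those of the integrated stress response around the transcription factor ATF4, together with the amino acid, folate and transport genes that ATF4 is known to switch on. They were taken from the count table by gene symbol from a list drawn up with earlier results of these data known, and all 34 were found among its 62700 genes. All 34 also passed the filter for testing, since each averaged 10 normalized counts or more across the 16 libraries, as did 14643 genes in all. OCI-AML3 is an established human acute myeloid leukemia line, and it was profiled in 4 untreated libraries, 3 with ATRA, 3 with AM80, 3 with ATRA plus both GSK-LSD1 and MB3 (the ATRA combination) and 3 with AM80 plus both GSK-LSD1 and MB3 (the AM80 combination). Each retinoid and GSK-LSD1 were given at 0.1 µM, MB3 at 100 µM, and RNA was taken after 3 h. Whether the untreated cells received the vehicle, and when they were harvested, is not given in the sources used here. ATRA, all-trans retinoic acid, activates every retinoic acid receptor, whereas AM80 (tamibarotene), a synthetic retinoid with an aromatic amide in place of the polyene chain, is selective for RARA. GSK-LSD1 inhibits the histone demethylase LSD1 and MB3 the histone acetyltransferase GCN5. No library had an inhibitor without a retinoid, or 1 inhibitor alone, so the pair was measured only beside a retinoid and the 2 inhibitors cannot be told apart.

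In the integrated stress response, kinases that sense heme shortage (EIF2AK1), unfolded protein in the endoplasmic reticulum (EIF2AK3) or lack of amino acids (EIF2AK4) phosphorylate the translation factor eIF2, which slows protein synthesis and favours translation of ATF4. ATF4 then activates genes for amino acid synthesis and uptake, and regulators such as DDIT3 (CHOP), TRIB3 and PPP1R15A that feed back on the response. Much of this control acts on translation and protein stability, which RNA counts do not measure.

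Libraries held 11963898 to 33789718 reads on genes, and AM80 replicate 2 was the deepest. Depth also differed by group, with medians of 14652540 untreated, 19172560 with ATRA and 24149972 with AM80. The medians were 17375513 in the ATRA combination and 14706886 in the AM80 combination. Untreated replicate 4 was the highest untreated library for several of the 34 genes, and values without it are given where they change a call. All 11 myeloid markers examined (among them MPO, SPI1 and CD33) averaged 10 or more normalized counts in each group. A change of RNA per cell and a change in the share of cells of a kind cannot be told apart in these bulk samples. The labels do not say whether replicates came from separate cultures, so p-values measure only the spread between these libraries. Scaling by total reads in place of the deposited DESeq2 factors shifted the whole distribution, and the median log2 fold change of all genes fell by 0.145 for adding the inhibitors to ATRA and fell by 0.123 for adding them to AM80. The counts under this and under quantile normalization are given beside the main ones where the balance of higher and lower calls changed. The shares of all genes called higher or lower are those of the main fit. Counts under these scalings have no such share beside them.

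In untreated cells the 34 genes spanned a wide range of levels, compared here as normalized counts per kb of exon. EIF4EBP1, an inhibitor of cap-dependent translation, stood first with 2046 ± 379 per kb (SD, n = 4), and its libraries lay above all those of PSAT1, the second gene, at 1459 ± 124 per kb. PSAT1, ATF4 (1329 ± 177 per kb) and the leucine transporter SLC7A5 (1244 ± 39.7 per kb) overlapped as neighbours in this order. The lowest were GDF15, CHAC1, ASNS, ATF3 and STC2, and STC2, a secreted glycoprotein, was last with 4.14 ± 0.927 per kb. ASNS, which makes asparagine and is a classical ATF4 target, was near the bottom of the order, with 32 to 76 reads over the 16 libraries. A gene on the same strand overlaps its exons, and with the reads of both added the mean in untreated cells was 184 in place of 46.9 normalized counts, so its place rests on how shared reads were assigned.

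**Figure D1:**
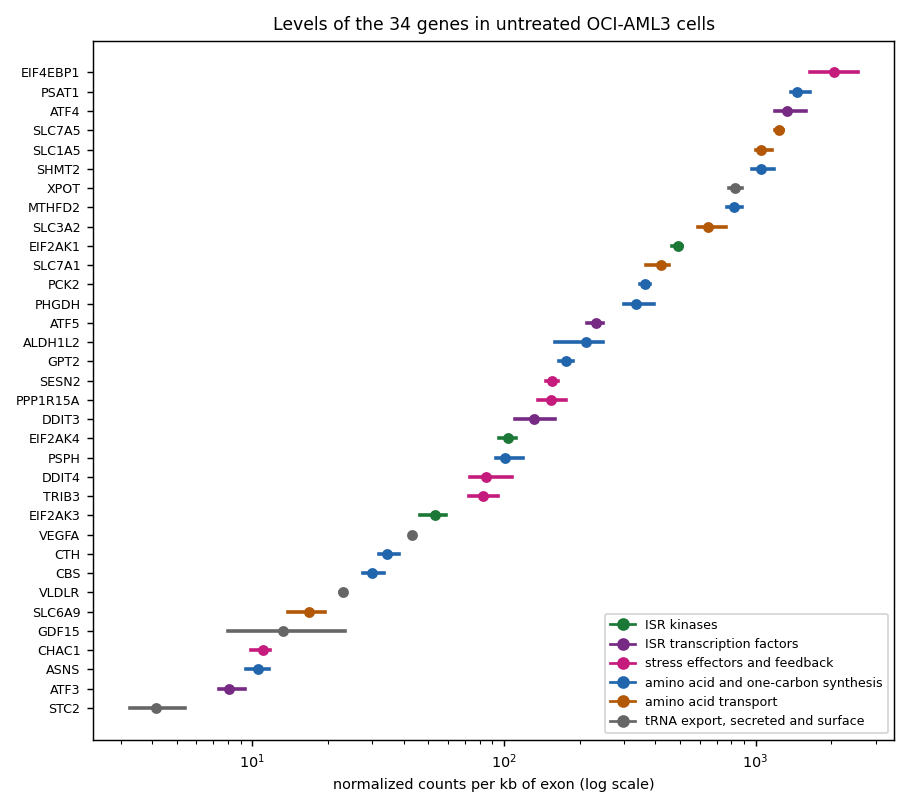
Normalized counts per kb of exon (x axis, log scale) of the 34 genes in untreated OCI-AML3 cells, in order of the mean. Points are means of 4 libraries, lines run from the lowest to the highest library, and colours give the role, with the synthesis and transport genes PSAT1, SLC7A5, SLC1A5 and SHMT2 near the top and ASNS, ATF3 and STC2 at the bottom.

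In GRCh38 (GENCODE release 29), ATF4 lies at chr22:39519695-39522685 and its targets DDIT3, TRIB3 and ASNS at chr12:57516588-57521737, chr20:362835-397559 and chr7:97852118-97872542. Promoter sequences were read for the genes because ATF4, paired with a C/EBP protein, binds a composite element whose core is TGATGNAA. RefSeq windows of 300 bases (250 before to 50 after a RefSeq start of the gene, GRCh38.p14) were present for 27 of the 34 genes, in 41 windows. The core, searched on both strands, was found in 6 of these 41 windows (14.6%) and in 3.62% of all 35116 windows of that length. A match lay before the start in ATF3, ASNS, CHAC1 and SLC1A5, and after it in SLC3A2 and SLC7A1. The 250 bases before the start are printed for those 4 genes, 5′ to 3′ on the gene's strand, with the match in capitals, since they hold the searched core.
ASNS, chr7:97872409-97872658, minus strand: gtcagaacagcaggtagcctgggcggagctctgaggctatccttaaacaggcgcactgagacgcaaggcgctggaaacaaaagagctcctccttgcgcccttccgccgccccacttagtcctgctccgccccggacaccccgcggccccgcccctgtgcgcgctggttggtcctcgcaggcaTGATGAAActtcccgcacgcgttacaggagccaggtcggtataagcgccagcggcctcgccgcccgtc
CHAC1, chr15:40953221-40953470, plus strand: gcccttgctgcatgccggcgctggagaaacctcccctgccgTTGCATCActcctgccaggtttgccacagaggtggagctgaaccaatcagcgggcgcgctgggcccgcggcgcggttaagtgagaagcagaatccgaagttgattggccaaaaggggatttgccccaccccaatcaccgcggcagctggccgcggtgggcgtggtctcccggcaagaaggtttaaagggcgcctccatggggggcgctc
ATF3, chr1:212565157-212565406, plus strand: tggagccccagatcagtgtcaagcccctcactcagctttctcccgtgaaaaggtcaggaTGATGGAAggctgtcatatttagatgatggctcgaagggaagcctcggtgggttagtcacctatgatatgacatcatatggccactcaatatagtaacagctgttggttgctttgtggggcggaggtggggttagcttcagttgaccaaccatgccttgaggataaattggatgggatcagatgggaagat
SLC1A5, chr19:46784815-46785064, minus strand: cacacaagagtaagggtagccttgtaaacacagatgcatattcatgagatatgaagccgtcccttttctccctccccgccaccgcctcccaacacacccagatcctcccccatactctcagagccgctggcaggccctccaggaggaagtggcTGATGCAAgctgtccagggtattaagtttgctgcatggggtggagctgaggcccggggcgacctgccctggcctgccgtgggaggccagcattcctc
The ASNS match begins 68 bases before the start, that of SLC1A5 97 bases, that of ATF3 191 bases and that of CHAC1, which is on the opposite strand, 209 bases. These RefSeq starts all lie inside the span that GENCODE release 29 gives the gene, and the printed windows of SLC1A5 and CHAC1 lie wholly inside it. Which starts these cells used was not tested. A match is a description of letters and shows no binding.

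Each retinoid alone moved some of the 34 genes up and others down, with DDIT4, GDF15 and DDIT3 among those that rose and TRIB3 and SLC7A5 among those that fell. With ATRA, 5 genes were higher and 7 lower than in untreated cells (limma, adjusted p under 0.05), beside 12.5% and 12.1% of all genes tested. With AM80, 5 were higher and 6 lower, beside 15.4% and 13.4%. Rises among the 34 were thus about as frequent as over all genes. Falls were called somewhat more often, but only those of TRIB3, GPT2 and SLC7A5 held when each library was left out in turn. The slight excess of falls is therefore not read as a trait of the 34. Of the rises, only that of SLC6A9 with ATRA was lost in this way. With a change of at least 1.5-fold required as well, 5 genes passed with ATRA (9.45% of all genes) and 6 with AM80 (10.2%). Over the 34, the median log2 fold change came to -0.0124 (ATRA) and -0.0586 (AM80), and over all genes to -0.0197 and -0.00513. Of 13 stress regulators and effectors, 3 were higher and 3 lower with ATRA, and 3 were higher and 1 lower with AM80. Of 16 amino acid synthesis and transport genes, 1 was higher and 2 lower with ATRA, and 1 was higher and 4 lower with AM80. Scaled to total reads or by quantiles, AM80 gave 5 higher and 9 lower of the 34, and 3 higher and 3 lower of the stress genes. Quantile normalization with ATRA left 0 amino acid genes higher and 2 lower. The shares of all genes given here are those of the main fit. The 4 untreated libraries served for both comparisons, in which DDIT3, DDIT4 and GDF15 were higher in each (3 of 5 rises in either) and TRIB3, GPT2, SLC7A5 and STC2 lower (4 of 7 and 4 of 6 falls).

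DDIT4 (REDD1), an inhibitor of mTORC1, had 155, 175, 151 and 222 normalized counts in the untreated libraries, 1029, 1003 and 1036 with ATRA, and 1016, 831 and 1041 with AM80. Every retinoid library was far above every untreated one, and the libraries of the 2 retinoids overlapped. The log2 fold change was 2.55 ± 0.13 (SE) with ATRA (limma, adjusted p = 2.52e-12) and 2.46 ± 0.13 with AM80 (adjusted p = 4.79e-12). An antisense gene, DDIT4-AS1, overlaps 41.2% of the DDIT4 exon bases on the other strand, and the strand setting of the counting is not given in the sources used here.

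GDF15, a secreted stress cytokine, had 23.7, 16.6, 21.2 and 48.7 normalized counts in untreated cells, 121, 140 and 147 with ATRA, and 168, 111 and 144 with AM80. The retinoid libraries lay above all untreated ones, among which replicate 4 was the highest. GDF15 rose by 2.38 ± 0.24 (log2, SE) with ATRA (limma, adjusted p = 9.96e-08) and by 2.41 ± 0.24 with AM80 (adjusted p = 7.51e-08).

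DDIT3 (CHOP), a transcription factor of the C/EBP family induced by ATF4, had 170, 169, 146 and 207 normalized counts in untreated cells, 307, 292 and 297 with ATRA, and 315, 351 and 289 with AM80. All 6 retinoid libraries lay above the untreated ones. The log2 fold changes were 0.79 ± 0.11 and 0.88 ± 0.11 (limma, adjusted p = 8.49e-06 and 1.92e-06). TRIB3, a pseudokinase that is another target of ATF4 and restrains it, moved the other way, from 268, 292, 250 and 326 in untreated cells to 148, 173 and 182 with ATRA and 180, 147 and 185 with AM80. TRIB3 fell by 0.76 ± 0.15 on the log2 scale with ATRA (limma, adjusted p = 0.000554) and by 0.73 ± 0.15 with AM80 (adjusted p = 0.000671), without overlap between groups. DDIT3 shares 27.2% of its exon bases with the gene MARS on the other strand.

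ATF4 itself had small fold changes. Its normalized counts were 3253, 3120, 2999 and 3991 in untreated cells, 2618, 2853 and 2864 with ATRA, and 3222, 3088 and 3067 with AM80. The ATRA libraries lay below all untreated ones and the AM80 libraries overlapped with them. ATF4 fell by 0.26 ± 0.0812 (log2, SE) with ATRA (limma, adjusted p = 0.0235), and the call was lost without Untreated replicate 4 (-0.17, adjusted p = 0.051) or without ATRA replicate 1 (-0.22, adjusted p = 0.125). No filter on low values, a fit of only the groups compared and the replicate block ended the ATRA call as well. With AM80 the log2 fold change of ATF4 was -0.0874 (limma, adjusted p = 0.46).

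Among the amino acid genes, SLC7A5, the light chain of the LAT1 transporter for large neutral amino acids, had 5649, 5978, 6093 and 5884 normalized counts in untreated cells, 4423, 4683 and 4577 with ATRA, and 4293, 3556 and 4394 with AM80. Every retinoid library was below every untreated one. SLC7A5 fell by 0.37 ± 0.0738 (log2, SE) with ATRA (limma, adjusted p = 0.000673) and by 0.54 ± 0.0738 with AM80 (adjusted p = 8.47e-06). GPT2, mitochondrial alanine transaminase, averaged 1121 in untreated cells, 844 with ATRA and 829 with AM80, and fell by 0.41 and 0.44 (limma, adjusted p = 0.000385 and 0.000163). The folate enzyme MTHFD2 averaged 3991, 4017 and 4892, and rose with AM80 only by this test (0.29 ± 0.0735, limma, adjusted p = 0.0043). ATF3 rose with AM80 (0.64, adjusted p = 0.00388, limma) and had a log2 fold change of 0.35 with ATRA (adjusted p = 0.111). ASNS and CHAC1, which cleaves glutathione, did not pass with either retinoid, with log2 fold changes from -0.26 to 0.0539.

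The remaining calls with a retinoid were small or came from low counts. EIF2AK3 (PERK) rose by 0.35 with ATRA in all 3 libraries, from a mean of 288 to 365 normalized counts (limma, adjusted p = 0.00724). STC2, with 5.79 to 33.2 normalized counts in these 3 groups, fell by 1.04 with ATRA and by 1.10 with AM80 on the log2 scale (limma, adjusted p = 0.0401 and 0.027). In all, 7 of the 12 ATRA calls and 8 of the 11 AM80 calls held when each of the 16 libraries was left out in turn. With ATRA, besides ATF4, SLC6A9 (0.43) lost its call without Untreated replicate 2 or 4 or any ATRA replicate (0.34 to 0.47), and STC2 without Untreated replicate 1, 2 or 4 or ATRA replicate 2 or 3 (-1.15 to -0.62). EIF4EBP1 (-0.34) lost it without Untreated replicate 4 or ATRA replicate 1 or 2 (-0.34 to -0.23), and XPOT (-0.20) without Untreated replicate 2 or 3 or ATRA replicate 2 (-0.19 to -0.14). With AM80, STC2 lost its call without Untreated replicate 4 (-0.96) or AM80 replicate 3 (-0.68), and SLC1A5 (-0.21) without Untreated replicate 4 or AM80 replicate 1 or 2 (-0.23 to -0.15). SLC3A2 (-0.27) lost it without AM80 replicate 2 (-0.14), without Untreated replicate 2 (-0.28) or 4 (-0.19), and without any ATRA replicate, ATRA combination replicate 1 or AM80 combination replicate 2 (-0.27 each).

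**Figure D2:**
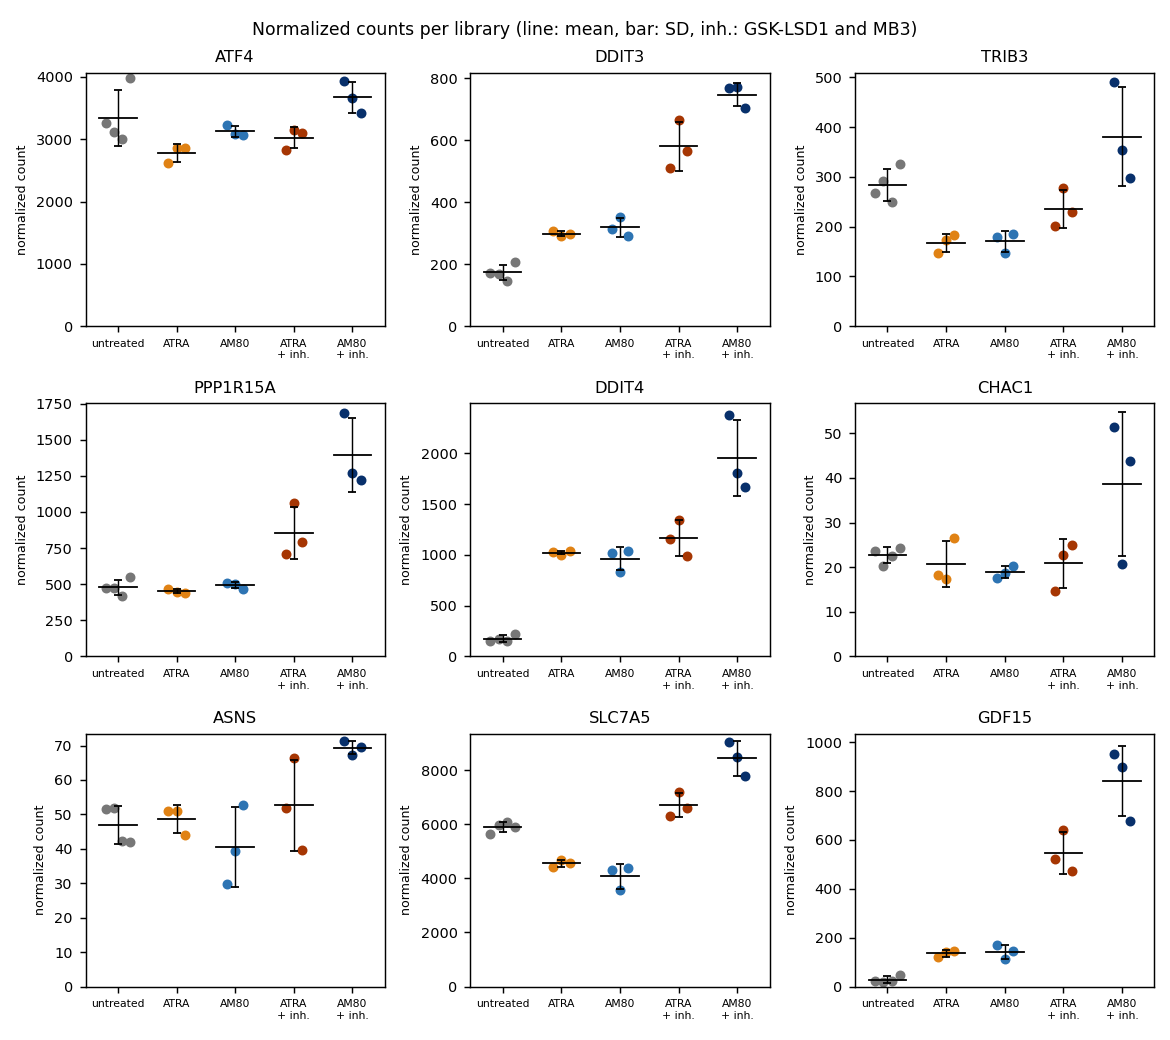
Normalized counts (y axis, linear, from 0) of 9 of the genes in each of the 16 libraries, by group (x axis), where inh. stands for GSK-LSD1 with MB3. Points are libraries, horizontal lines group means and bars SD, and DDIT4 stands between 831 and 1041 with either retinoid against 151 to 222 in untreated cells, while PPP1R15A and GDF15 are higher in both combinations than with the retinoid alone.

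Adding GSK-LSD1 and MB3 to a retinoid raised PPP1R15A, GDF15, DDIT3, TRIB3, SESN2 and SLC7A5 beside either retinoid, whereas PHGDH, SHMT2, CBS, PCK2 and SLC1A5 fell beside ATRA. Beside ATRA, 11 of the 34 were higher and 6 lower than with ATRA alone (limma, adjusted p under 0.05), against 24.9% and 24.4% of all genes. Beside AM80, 18 were higher and 1 lower, against 19.9% and 19.5%. With at least a 1.5-fold change, 3 passed beside ATRA (19.5% of all genes) and 11 beside AM80 (15.7%). The 34 had a median log2 fold change of 0.15 (ATRA) and 0.25 (AM80), and all genes one of -0.018 and -0.0106. Of the 13 stress regulators and effectors, 5 rose beside ATRA and 8 beside AM80, and 0 fell in either. Of the 16 amino acid genes, 3 rose and 6 fell beside ATRA, and 7 rose and 1 fell beside AM80. The counts depended on scaling, and the shares of all genes above are those of the main fit only. With total reads the median of all genes also fell, as given above. Scaled to total reads, the 34 genes gave 6 rises and 7 falls beside ATRA and 14 rises and 5 falls beside AM80, and by quantile normalization 12 and 7, and 16 and 5. Under total reads, 3 stress genes rose and 1 fell beside ATRA and 6 rose and 1 fell beside AM80, while 5 amino acid genes rose and 4 fell beside AM80. Under quantile normalization, 6 stress genes rose and 1 fell beside ATRA, 7 rose and 1 fell beside AM80, and 6 amino acid genes rose and 4 fell beside AM80.

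PPP1R15A (GADD34), the regulatory subunit that brings a phosphatase to eIF2 and so ends the response, had 466, 448 and 439 normalized counts with ATRA and 712, 1060 and 791 in the ATRA combination. With AM80 it had 510, 503 and 468, and in the AM80 combination 1688, 1271 and 1223. Each combination lay wholly above its retinoid, and the AM80 combination wholly above the ATRA combination. PPP1R15A rose by 0.90 ± 0.13 (log2, SE) beside ATRA (limma, adjusted p = 1.11e-05) and by 1.48 ± 0.13 beside AM80 (adjusted p = 2.04e-08), after no called change with either retinoid.

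GDF15 rose again, to 522, 640 and 474 normalized counts in the ATRA combination and 950, 898 and 677 in the AM80 combination, without overlap with the retinoid alone. These are log2 fold changes of 1.99 ± 0.25 and 2.57 ± 0.25 (limma, adjusted p = 2.76e-06 and 1.13e-07). DDIT3 reached 511, 665 and 564 in the ATRA combination and 766, 770 and 704 in the AM80 combination. Its log2 fold changes over the retinoid were 0.95 ± 0.12 and 1.23 ± 0.12 (limma, adjusted p = 1.63e-06 and 5.86e-08). DDIT3 and GDF15 were thus raised by each retinoid and again by the inhibitors beside each.

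DDIT4 did not follow them beside ATRA, where it had 1154, 1349 and 991 normalized counts in the combination, a range that overlaps ATRA alone (log2 fold change 0.18, limma, adjusted p = 0.318). In the AM80 combination it had 2381, 1812 and 1669, all above AM80 alone (1.01 ± 0.14, limma, adjusted p = 1.06e-05). TRIB3, which the retinoids lowered, had 202, 277 and 228 in the ATRA combination and 491, 353 and 299 in the AM80 combination. Its rise over AM80 was 1.13 ± 0.16 (limma, adjusted p = 1e-05) and over ATRA 0.49 ± 0.16 (adjusted p = 0.015). The ATRA call was lost without ATRA replicate 1 (0.40, limma, adjusted p = 0.074), without ATRA combination replicate 2 (0.36, adjusted p = 0.0971) and with scaling to total reads (0.34, adjusted p = 0.0696).

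Among the other regulators, SESN2, which restrains mTORC1 when leucine is short, had means of 526 and 506 with ATRA and AM80 and 695 and 936 in their combinations, and rose by 0.40 and 0.90 (limma, adjusted p = 0.00135 and 2.37e-07). The amino acid sensor kinase EIF2AK4 (GCN2) rose by 0.31 and 0.23 (limma, adjusted p = 0.000658 and 0.00814), and both calls were lost with scaling to total reads and the second also with quantile normalization. EIF2AK1 and EIF2AK3 did not pass, with log2 fold changes from -0.12 to -0.0357. ATF4 had 2827, 3141 and 3098 normalized counts in the ATRA combination and 3928, 3668 and 3427 in the AM80 combination. Its log2 fold change was 0.12 beside ATRA (limma, adjusted p = 0.261) and 0.23 beside AM80 (adjusted p = 0.0393). The second value lost its call without any of 5 libraries (AM80 replicates 1, 2 and 3 and AM80 combination replicates 1 and 2). The weakest of these was 0.18 without AM80 combination replicate 1 (limma, adjusted p = 0.157). Scaling to total reads (0.11, limma, adjusted p = 0.284), quantile normalization, edgeR and no filter on low values ended the call as well.

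CHAC1 had 17.6, 18.6 and 20.3 normalized counts with AM80 and 51.5, 20.6 and 43.8 in the AM80 combination, so replicate 2 of the combination was barely above AM80 alone. Its log2 fold change was 0.90 ± 0.29 (limma, adjusted p = 0.0173), and the call was lost without AM80 combination replicate 1 (0.65, adjusted p = 0.111), without AM80 combination replicate 3 (0.77, adjusted p = 0.0777) or without AM80 replicate 1 (0.86, adjusted p = 0.0543). Beside ATRA it had 18.3, 17.3 and 26.6 without and 14.6, 22.8 and 25 with the inhibitors, with overlap and a log2 fold change of -0.0028. CHAC1 had 15 to 47 reads in a library.

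Beside ATRA, genes of serine synthesis and folate metabolism were called in both directions. MTHFD2 rose beside both retinoids, to means of 5540 and 6419 (0.46 and 0.39, limma, adjusted p = 7.45e-05 and 0.000529). PSAT1, the transaminase of serine synthesis, rose by 0.25 and 0.21 (limma, adjusted p = 0.0134 and 0.0363), and lost both calls with scaling to total reads and with quantile normalization. PHGDH, the first enzyme of serine synthesis, had 3269, 3005 and 3148 normalized counts with ATRA and 2276, 2305 and 2205 in the ATRA combination, without overlap. It had 3141, 2790 and 3178 with AM80 and 3227, 2895 and 2733 in the AM80 combination, with overlap. PHGDH fell by 0.47 ± 0.0869 (log2, SE) beside ATRA (limma, adjusted p = 0.000165), whereas beside AM80 the log2 fold change was -0.0416 (adjusted p = 0.735).

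SHMT2 (serine to glycine in mitochondria), CBS (transsulfuration), PCK2 (mitochondrial phosphoenolpyruvate carboxykinase) and the glutamine transporter SLC1A5 behaved like PHGDH. They fell beside ATRA by 0.42, 0.48, 0.43 and 0.49 on the log2 scale (limma, adjusted p between 2.94e-05 and 0.00283) and did not pass beside AM80, with log2 fold changes of -0.17, 0.0189, -0.14 and -0.14. GPT2 fell in both, by 0.49 beside ATRA and by 0.22 beside AM80 (limma, adjusted p = 6.76e-05 and 0.0416). CTH, another of the amino acid synthesis genes, rose beside AM80 (0.62, limma, adjusted p = 0.00212) and was not called beside ATRA. Against untreated cells CTH was higher in the ATRA and the AM80 combination (0.69 and 0.85, limma, adjusted p = 0.000214 and 2.54e-05). Under total reads or quantile normalization, SHMT2, PCK2, GPT2 and SLC1A5 passed as lower beside AM80 too. The difference between the 2 retinoids in this step is tested as an interaction further on.

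ASNS had 51.1, 50.9 and 43.9 normalized counts with ATRA and 51.7, 66.3 and 39.8 in the ATRA combination, which overlap. With AM80 it had 29.7, 39.4 and 52.8, and in the AM80 combination 71.3, 67.3 and 69.5, all higher. The log2 fold change beside AM80 was 0.80 ± 0.20 (limma, adjusted p = 0.00385). A gene on the same strand, ENSG00000284707, covers 44.6% of the ASNS exon bases in GENCODE release 29 and had 113 normalized counts on average in the AM80 combination and 118 with AM80. With the reads of both genes added, the change beside AM80 was 0.22 (limma, adjusted p = 0.176), and against untreated cells -0.00135 (adjusted p = 0.994) in place of 0.56. How reads in the shared exons were assigned was not tested.

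Among transporters, SLC7A5 had 6312, 7190 and 6607 normalized counts in the ATRA combination and 9049, 8475 and 7767 in the AM80 combination. Every combination library was above every library of its retinoid and above every untreated one. SLC7A5 rose by 0.55 ± 0.0789 (log2, SE) beside ATRA (limma, adjusted p = 1.05e-05) and by 1.05 ± 0.0789 beside AM80 (adjusted p = 2.87e-09). Its heavy chain SLC3A2 rose only beside AM80 by this test, by 0.48 (limma, adjusted p = 0.000915), and SLC7A1, which takes up arginine and lysine, by 0.26 (adjusted p = 0.00694), against 0.0516 and 0.0047 beside ATRA. VEGFA rose in both (0.23 and 0.53, limma, adjusted p = 0.0131 and 1.02e-05), and XPOT, the tRNA exporter, beside ATRA (0.28, adjusted p = 0.00242). The calls of SLC7A1 beside AM80 and XPOT beside ATRA were lost with scaling to total reads and with quantile normalization, and that of VEGFA beside ATRA with total reads.

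Of the calls for adding the inhibitors, 14 of 17 beside ATRA and 14 of 19 beside AM80 held when each library was left out in turn. Besides TRIB3, those lost beside ATRA were VEGFA (0.17 without ATRA replicate 3, 0.18 without ATRA combination replicate 2) and PSAT1 (0.22 without ATRA replicate 2, 0.19 without ATRA combination replicate 2). Besides ATF4 and CHAC1, PSAT1 lost its call beside AM80 without AM80 replicate 2 or 3 or AM80 combination replicate 1 or 2 (0.16 to 0.20). GPT2 lost it without ATRA replicate 1 or 3, AM80 replicate 1 or 3 or AM80 combination replicate 2 or 3 (-0.22 to -0.17). STC2, at 1.07 beside AM80, lost it without AM80 replicate 3 (0.65) or AM80 combination replicate 1 (0.99) or 2 (0.83).

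**Figure D3:**
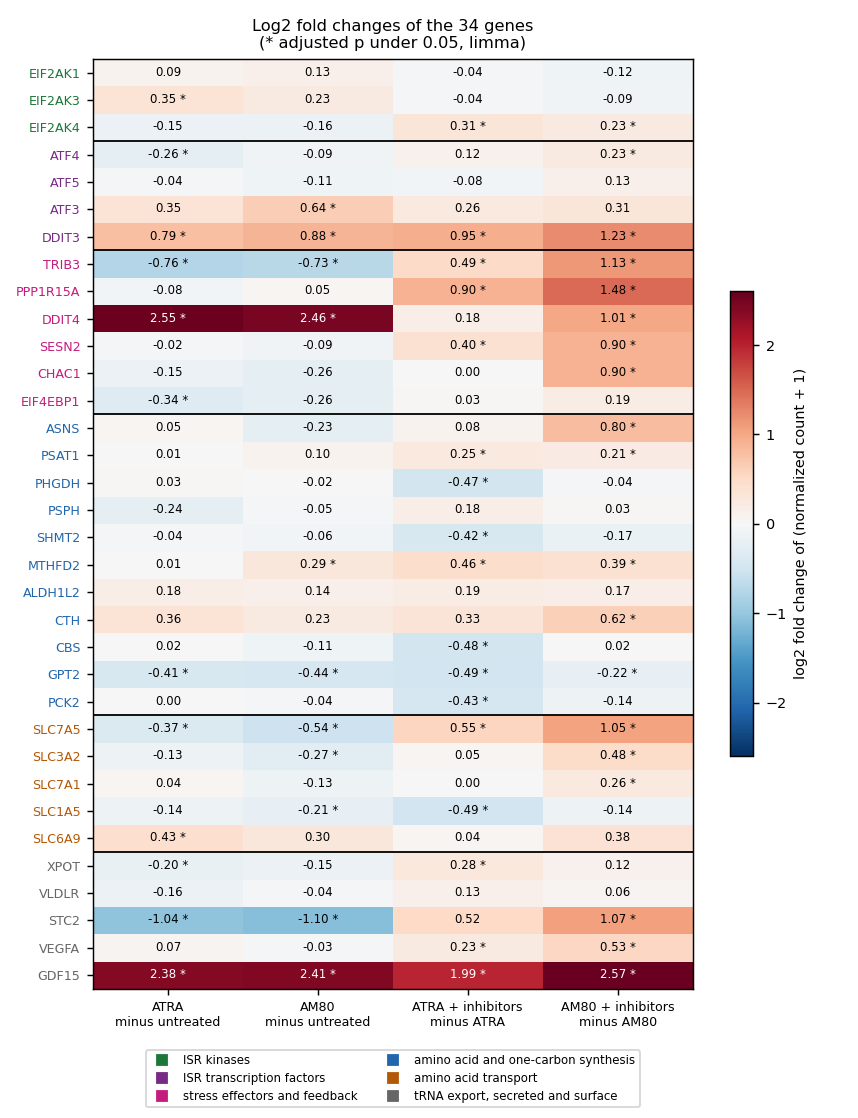
Log2 fold changes of the 34 genes (rows, by role) for each retinoid against untreated cells and for adding both inhibitors to each retinoid (columns), on the log2(normalized count + 1) scale. Red is higher, blue is lower and an asterisk marks an adjusted p under 0.05 (limma), with 18 asterisks for a rise and 1 for a fall in the last column.

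Against untreated cells, 15 of the 34 genes were higher and 7 lower in the ATRA combination (limma, adjusted p under 0.05), beside 30.2% and 30.0% of all genes, and 16 were higher and 3 lower in the AM80 combination, beside 28.0% and 26.6%. With at least a 1.5-fold change, 8 (29.1% of all genes) and 11 (26.0%) passed. Scaled to total reads, 8 were higher and 11 lower in the ATRA combination and 11 higher and 9 lower in the AM80 combination. By quantile normalization these were 11 and 9, and 14 and 7. Here too the shares of all genes are those of the main fit only. GDF15 showed the largest rise of the 34, by 4.36 ± 0.24 and 4.99 ± 0.24 on the log2 scale (limma, adjusted p = 3.44e-12 and 3.29e-13). DDIT4 followed with 2.73 and 3.47 and DDIT3 with 1.74 and 2.11. The falls shared by both were those of SHMT2, GPT2 and SLC1A5, and GPT2 fell most, by 0.89 and 0.65 (limma, adjusted p = 4.88e-09 and 4.05e-07). TRIB3 was at 0.40 in the AM80 combination (limma, adjusted p = 0.0272), a call lost without AM80 combination replicate 1 (0.20, adjusted p = 0.26), without Untreated replicate 1 (0.37, adjusted p = 0.0607) or without Untreated replicate 3 (0.34, adjusted p = 0.0741). The call of CHAC1 in the AM80 combination (0.65, limma, adjusted p = 0.0487) was lost when any of 13 libraries was left out, which were all but ATRA replicate 3, ATRA combination replicate 1 and AM80 combination replicate 2. It was weakest without AM80 combination replicate 1 (0.40, limma, adjusted p = 0.277) or 3 (0.51, adjusted p = 0.184), between 0.60 and 0.68 without the others. In the ATRA combination, SLC7A5 (0.18, limma, adjusted p = 0.0386) lost its call without Untreated replicate 1 or 2 or ATRA combination replicate 2 or 3 (0.13 to 0.19). EIF2AK4 (0.17, limma, adjusted p = 0.027) lost it without Untreated replicate 1 or 4 or ATRA combination replicate 1 or 2 (0.13 to 0.16), and EIF4EBP1 (-0.31, adjusted p = 0.0169) without Untreated replicate 4 (-0.20) or ATRA combination replicate 2 (-0.26). Scaling to total reads ended the calls of TRIB3, CHAC1 and ASNS in the AM80 combination. In the ATRA combination it ended those of SLC6A9, EIF2AK3 and VEGFA. That scaling and quantile normalization each ended the calls of SLC7A5 and EIF2AK4 in the ATRA combination. The same held for PSAT1 and ALDH1L2 in both combinations. EIF2AK1, ATF5, PSPH and VLDLR passed in 0 of the 6 comparisons with untreated cells or with the retinoid alone.

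The 2 retinoids were next compared with each other at the same dose and time, in 2 pairs (without and with the inhibitors), with p-values adjusted over all genes in each. Without inhibitors, 0 of the 34 genes passed (limma), beside 0.239% of all genes. The largest difference at an unadjusted p under 0.05 was that of MTHFD2, with 5044, 4990 and 4642 normalized counts with AM80 and 4064, 3788 and 4198 with ATRA (log2 difference 0.28, 95% interval 0.12 to 0.45, limma, adjusted p = 0.113). MTHFD2 was called without Untreated replicate 4, without that library and AM80 replicate 2 together, and by DESeq2. In all, 3 of the 34 had an unadjusted p under 0.05 (13.9% of all genes did). Every AM80 library was above every ATRA library for ATF4, PPP1R15A and MTHFD2 (10.8% of all genes) and below for SLC7A5 and SLC7A1 (9.45%). For the stress genes the intervals were wide enough to hold modest differences, such as -0.15 to 0.33 for DDIT3, -0.30 to 0.35 for TRIB3 and -0.49 to 0.56 for GDF15, so the data do not show that the retinoids act alike.

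With the inhibitors, 0 of the 34 passed (limma, beside 0% of all genes), although 19 had an unadjusted p under 0.05 (18.1% of all genes), each of them higher in the AM80 combination. The smallest adjusted p of any gene was 0.117. For 20 of the 34 every AM80 combination library was above every ATRA combination library, which held for 16.4% of all genes, and for 4 every library was below (13.8% of all genes). The log2 difference was above 0 for 29 of the 34 (49.3% of all genes), with a median of 0.25 against -0.00349. The largest were CHAC1 (0.80, 95% interval 0.19 to 1.40), DDIT4 (0.74, 0.44 to 1.04), PPP1R15A (0.71, 0.44 to 0.98), TRIB3 (0.67, SE 0.16) and GDF15 (0.62, 0.0942 to 1.15). Of these, only CHAC1, a gene of few reads, overlapped between the groups. It had 14.6 to 25 normalized counts in the ATRA combination and 20.6 to 51.5 in the AM80 combination. The 5 genes below 0 were EIF2AK1, EIF2AK3, EIF2AK4, ALDH1L2 and XPOT, the 3 kinases among them.

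This call depended on the fit. Fitted on only the 6 combination libraries, limma called 17 of the 34, each higher with AM80, DESeq2 on recovered reads called 7, edgeR 0, and the fit of all groups called 11 without Untreated replicate 4, 7 without AM80 replicate 2 and 1 (PPP1R15A) without ATRA combination replicate 2. With both Untreated replicate 4 and AM80 replicate 2 left out, 17 were called. Of all 14643 genes, 1975 were called in the fit of only the 6 libraries, 119 by DESeq2, 0 by edgeR, 646 without Untreated replicate 4, 243 without AM80 replicate 2, 7 without ATRA combination replicate 2 and 2304 with both libraries left out. With 1 library left out at a time, the number of genes above 0 was 27 to 29.

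The interaction asks whether the inhibitors moved a gene differently beside AM80 than beside ATRA. No gene of the 34 passed (limma, 0% of all genes, smallest adjusted p of any gene 0.226), and 16 had an unadjusted p under 0.05 (15.1% of all genes), all with the larger value beside AM80. SLC7A5 had an interaction of 0.50 (log2, 95% interval 0.26 to 0.73), DDIT4 one of 0.83 (0.42 to 1.25), PHGDH 0.43 (0.17 to 0.69) and PPP1R15A 0.58 (0.20 to 0.96), each with an adjusted p of 0.226 (limma). DESeq2 called 2 (DDIT4 and SLC7A5), edgeR 0, and leaving out AM80 replicate 3 called 1 (SLC7A5), where these settings called 27, 0 and 41 of all genes.

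**Figure D4:**
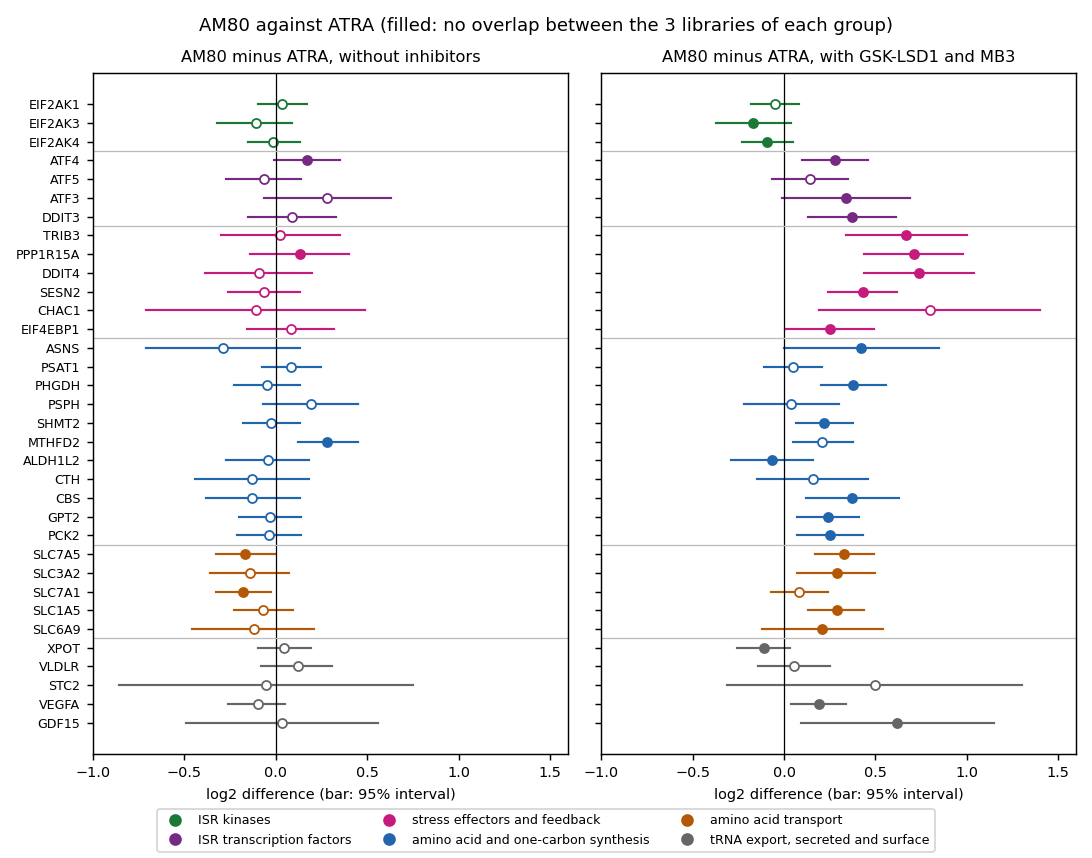
Log2 difference of AM80 minus ATRA for the 34 genes (rows, by role) without inhibitors (left) and with GSK-LSD1 and MB3 (right). Points are differences, bars 95% intervals, and filled points mark genes whose 3 libraries per group did not overlap, which were 5 on the left and 24 on the right (20 above and 4 below 0).

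Genes near the 34 in the same pathways were counted from lists of other members of the response. The main counts are to be read against the shares of all genes. These were 24.9% higher and 24.4% lower beside ATRA, and 19.9% and 19.5% beside AM80. Counts under the other scalings have no such share beside them. Of 20 cytosolic aminoacyl-tRNA synthetases, several of them ATF4 targets, 10 rose and 4 fell on adding the inhibitors to ATRA and 7 rose and 1 fell beside AM80. This balance turned over with scaling to total reads, to 4 rises and 5 falls and to 2 rises and 7 falls, and with quantile normalization, to 4 and 5 and to 2 and 6. GARS1, glycyl-tRNA synthetase, rose in both (0.49 and 0.40, limma, adjusted p = 5.58e-06 and 7.07e-05), and VARS1, valyl-tRNA synthetase, fell in both (-0.54 and -0.28, adjusted p = 2.04e-05 and 0.00963). Of 15 further amino acid transporters, 14 were tested, 7 rose and 3 fell beside ATRA, and 7 rose and 1 fell beside AM80 (with total reads 5 and 4, and 5 and 2, by quantiles 6 and 2, and 5 and 0). The cystine transporter SLC7A11 went from means of 269 and 275 to 795 and 785 (1.55 and 1.51, limma, adjusted p = 1.31e-08 and 1.66e-08), and the glutamate transporter SLC1A3 from 109 and 101 to 796 and 717, against 428 in untreated cells. Of 19 other amino acid and folate enzymes, 3 rose and 11 fell beside ATRA and 2 rose and 7 fell beside AM80 (with total reads 2 and 13, and 1 and 11, by quantiles 2 and 11, and 1 and 11). GLUL, glutamine synthetase, fell in both (-0.59 and -0.56, limma, adjusted p = 2.45e-07 and 5.63e-07). SHMT1 fell in both too, from means of 652 and 651 to 477 and 498. MTHFD2L rose in both, from means of 189 and 188 to 272 and 276.

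Of 15 genes for eIF2, its exchange factor eIF2B, its phosphatase and upstream relays, 4 rose and 2 fell beside ATRA and 3 rose and 2 fell beside AM80 (with total reads 3 and 4, and 3 and 3, by quantiles 3 and 4, and 3 and 2). PPP1R15B, the constitutive partner of the eIF2 phosphatase, rose by 0.81 and 0.74 (limma, adjusted p = 3.7e-07 and 1.22e-06). Of 18 tested partners and further stress targets, 9 rose and 3 fell beside ATRA and 8 rose and 4 fell beside AM80. Among them PMAIP1 (NOXA, 1.56 and 1.47) and the autophagy gene MAP1LC3B (1.47 and 1.47) rose. BATF2 fell (-1.38 and -1.47), and each of these changes had an adjusted p under 0.05 (limma). BATF2 still stayed above untreated cells. Its mean was 14.5 normalized counts untreated, 284 with ATRA and 340 with AM80, and 111 and 121 in their combinations. Of 15 chaperones of the endoplasmic reticulum and genes of the IRE1 and ATF6 arms, 11 rose in each comparison, with 1 fall beside ATRA and 0 beside AM80. XBP1, the IRE1 substrate, went from means of 4872 and 5363 to 8718 and 9937 (0.84 and 0.89, limma, adjusted p = 7.88e-08 and 3.36e-08).

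The pattern of ATF4 over the 5 group means was compared with that of every gene tested by Pearson correlation of mean log2 values, as a description over 5 points that share the size factors. The most similar of all genes were MMP1 (r = 0.996), DUSP1 (0.988) and PTRH2 (0.988). Among the 34, VLDLR (0.901), TRIB3 (0.882) and EIF4EBP1 (0.844) were nearest, and DDIT3 (0.314), GDF15 (0.214) and DDIT4 (0.0136), the genes with the largest rises, were not close to it.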

How the data were processed

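RNA-seq was performed on 16 OCI-AML3 libraries, and per the labels reads were processed with FastQC, cutadapt, STAR, featureCounts and DESeq2. The authors deposited a signal table of normalized counts, that is, reads per gene over the DESeq2 size factor of the library. The genome build, annotation release and strand setting are not given in the sources used here, and the labels and the methods of the study name different RNA and library kits. Multiplying by the factor gave whole reads for 100% of values (tolerance 0.01), at 11963898 to 33789718 reads per library, a depth at which genes near 10 counts are imprecise. Gene identifiers were matched to GENCODE release 29 (GRCh38) for names, exon length and overlaps.

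log2(normalized count + 1) was fitted with limma 3.58.1 (R 4.3.3, mean-variance trend, 1 coefficient per group, all 16 libraries) for 14643 genes, with Benjamini-Hochberg adjustment over all genes in each comparison. Fold changes are on this scale and understate those of low genes. Alternatives were pseudocounts of 0.5 and 5, no filter or a filter at 50, quantile normalization, scaling to total reads, only the groups compared, edgeR 4.0.16 and DESeq2 1.42.0 on recovered reads, a replicate block, a 1.5-fold limit and each library left out. The genes, the lists and the motif were chosen with earlier results of these data known. Values in every library were given for ATF4, DDIT3, ASNS, TRIB3 and CHAC1, and for the 4 genes with the largest called change and a group mean of at least 50 in each of 4 comparisons, and MTHFD2 and PHGDH were added after their values were seen. Of the other lists, up to 3 genes called in both inhibitor comparisons were picked by the size of the change, and not all of them are named. Tables and figures were made with Python 3.11.15, pandas 2.3.3, scipy 1.17.1 and matplotlib 3.10.9.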

Additional observations from a re-analysis of the deposited data

Results flagged for a closer look

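Among the 34 genes, 4 had an untreated library far from the other 3, by a gap to the nearest library over most of the range. PSAT1 had 3594 normalized counts in Untreated replicate 4, against 3014, 3053 and 3108 in the others. SLC1A5 had 3889 in Untreated replicate 4, against 3344, 3397 and 3425. PSPH had 328 in Untreated replicate 1, against 256, 260 and 268. VLDLR had 209 in Untreated replicate 1, against 215 in each of the others. Chance flags about 1 in 20 groups, and 34 were examined, so 4 flags are 11.8% of them. The groups of 3 libraries were not examined in this way.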

How the results depend on the processing

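With at least a 1.5-fold change required, 5 of the 34 genes passed with ATRA, 6 with AM80, 3 on adding the inhibitors to ATRA, 11 on adding them to AM80, and 8 and 11 in the combinations against untreated cells. In AM80 against ATRA, 1 gene (MTHFD2) was called by DESeq2, with the replicate block, without Untreated replicate 4 and with both Untreated replicate 4 and AM80 replicate 2 left out. In the AM80 combination against the ATRA combination, 17 were called in the fit of only the groups compared, 7 by DESeq2, 12 with the replicate block (690 of all genes), and 17 with both Untreated replicate 4 and AM80 replicate 2 left out. In the interaction, DESeq2 called 2.

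Leaving out each library gave 8 to 13 called genes with ATRA, 10 to 12 with AM80, 14 to 18 and 15 to 21 on adding the inhibitors to ATRA and to AM80, 20 to 22 and 17 to 20 for the combinations against untreated cells, 0 to 1 for AM80 against ATRA, 0 to 11 between the combinations and 0 to 1 for the interaction. The genes above 0 between the combinations numbered 27 to 29. Those with every AM80 combination library higher numbered 20 to 24 without 1 combination library, beside 19% to 24.3% of all genes. With all libraries they numbered 20, beside 16.4%. Scaling to total reads gave 18, beside 12.9%, and quantile normalization 20, beside 14.4%. For the 9 genes given by library, 47 fold changes had 517 values under alternatives, of which 472 kept their direction and side of the threshold, 19 lost the call, 25 gained it and 1 reversed (ASNS with the overlapping gene added, -0.00135 in the AM80 combination against untreated cells). The causes were not tested.

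Whether equal replicate numbers mark paired libraries is not given in the sources used here. Same-numbered libraries of different groups had correlations of their deviations from -0.112 to 0.187, with 4 of 30 above 0.1. Of the 16 libraries, 5 correlated best with their own number. Low correlations over all genes cannot exclude a pairing. The replicate block moved no other count of called genes by over 1.5 times. At this depth STC2, CHAC1, ATF3 and ASNS, with 7 to 87 reads in a library, allow only large changes to be seen. The settings that leave out libraries together and the added ASNS reads were chosen after seeing the data.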
